A study of Mus musculus with 3 samples.

Results

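The genes described here are those of antibody production: the constant regions of the heavy chains (Ighm, Ighg1, Ighg2b, Ighg2c, Ighg3 and Igha), the constant region of the kappa light chain (Igkc), and Jchain, Mzb1 and Cd79a. They are 10 of the 32285 genes in the count tables and were taken by symbol, whatever their level. The tables are droplet-based single-cell RNA-seq of glomeruli, the filtering units of the kidney, with 1 library for each of 3 groups. The control library is labelled Control Blank, and its strain is not named in the labels. The MRL/lpr library is labelled Model Group and comes from female MRL/lpr mice, a strain with a mutation of Fas that develops lupus nephritis, here at about 16 weeks of age. The third library comes from female MRL/lpr mice given 800000 human umbilical cord mesenchymal stem cells (hUC-MSC) into the tail vein. Both MRL/lpr libraries, untreated and treated, are of day 21. All mice were bought at 6 to 8 weeks of age, and the number of mice in each library is not named in the sources used here. With 1 library per group there was no replicate, so no test was made. Every interval given is a 95% interval that covers counting error only, and cells of 1 library are not replicates.

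A B cell first makes IgM, with the heavy chain from Ighm, and can later exchange the constant region for that of an IgG (the Ighg genes) or of IgA (Igha) while it keeps its light chain. A plasma cell is the end stage of this lineage and fills its endoplasmic reticulum with antibody, so that immunoglobulin RNA makes up a large part of its transcripts. Jchain encodes the chain that links units of IgM and IgA, Mzb1 a reticulum protein that helps antibody assembly, and Cd79a a signalling subunit of the B cell receptor. In lupus nephritis, antibody deposits in the glomerulus are a defining lesion.

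The 6 heavy chain genes lie in 1 cluster on the minus strand of chromosome 12 (GRCm38, GENCODE M21), from Igha (113254830 to 113260236) through Ighg2c, Ighg2b, Ighg1 and Ighg3 to Ighm (113418558 to 113422730). Igkc is on chromosome 6 (70726435 to 70726966, plus strand), Jchain on chromosome 5 (88519809 to 88527891, minus strand) and Cd79a on chromosome 7 (24897381 to 24902197, plus strand). The last 30 coding bases of the secreted form of each heavy chain, an exonic stretch that ends in the stop codon, are shown because they carry the feature by which Jchain acts. The capitals mark the cysteine codon next to the last, through which the J chain binds; the 4 IgG genes have none at that place.
Ighm (chr12:113420867-113420896): atgtctgacacaggcggcaccTGCtattga
Igha (chr12:113258768-113258797): atgtcagagggagatggcatcTGCtactga
Ighg3 (chr12:113359665-113359694): aagaacctgtctcgctcccctggtaaatga
Ighg1 (chr12:113328976-113329005): aagagcctctcccactctcctggtaaatga
Ighg2b (chr12:113306389-113306418): aagaccatctcccggtctccgggtaaatga
Ighg2c (chr12:113287389-113287418): aagaccatctcccggtctctgggtaaatga
Ighg2b and Ighg2c end alike. Of the 1065 windows of 50 bases in the Ighg2b transcript, 56 (5.26%) also occur in Ighg2c, so reads could be divided between these genes, whereas no such window was shared by any other pair of the IgG genes.

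The deposited tables keep every barcode, including empty droplets. Barcodes with at least 500 UMIs (counted molecules) were taken as cells: 12386 in control, 19433 in MRL/lpr and 22323 in MRL/lpr + hUC-MSC, beside about 8000 cells captured per library by the study's methods. They held 81996979, 80961592 and 73494022 UMIs, with medians of 4827.5, 2847 and 2004 UMIs per barcode. Barcodes with 1 to 100 UMIs were summed as free RNA (6434399, 2881360 and 3123588 UMIs). The glomerular label was checked with marker genes: endothelial-like barcodes made up 47.0%, 23.5% and 28.0% of the cell barcodes, mesangial-like ones 8.55%, 8.82% and 6.68%, and podocyte-like ones 21.6%, 6.45% and 1.23%. Between 64 and 111 cell barcodes were shared by each pair of libraries. One of them holds a large part of the MRL/lpr immunoglobulin RNA and is treated below. Doublets were not removed.

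Summed over cell barcodes, immunoglobulin RNA was much lower in the MRL/lpr library than in the other two, while Ighm alone was higher in both MRL/lpr libraries than in control. The 7 constant genes (6 heavy chains and Igkc) gave 15419 UMIs in control, 2095 in MRL/lpr and 15874 in MRL/lpr + hUC-MSC. Per 1000000 UMIs of the same barcodes (CPM) these are 188, 25.9 and 216. The ratio was 0.138 for MRL/lpr over control (interval 0.131 to 0.144) and 8.35 for MRL/lpr + hUC-MSC over MRL/lpr (7.97 to 8.74). In such sums, fewer cells of a type and less RNA per cell cannot be told apart, and the sums rest on few barcodes, as described further on.

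Ighm, the mu chain of IgM, was at 2.02 CPM in control (interval 1.73 to 2.36), 6.56 in MRL/lpr (6.01 to 7.14) and 6.61 in MRL/lpr + hUC-MSC (6.04 to 7.23). The MRL/lpr library was thus 3.24 times the control (2.72 to 3.88), and the treated library was 1.01 times MRL/lpr (0.890 to 1.14). Igha, the alpha chain of IgA, had the widest range of the genes with at least 20 UMIs in every library. It was at 26.9 CPM in control (2202 UMIs), 0.519 in MRL/lpr (42 UMIs) and 64.2 in MRL/lpr + hUC-MSC (4718 UMIs), a ratio of 0.0193 for MRL/lpr over control (0.0139 to 0.0262) and of 124 for treated over MRL/lpr (91.4 to 172).

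Among the gamma chains, only Ighg3, the IgG3 heavy chain, reached 50 UMIs in any library. It was at 8.13 CPM in control (667 UMIs), 2.92 in MRL/lpr (236 UMIs) and 0.367 in MRL/lpr + hUC-MSC (27 UMIs). Ighg2b gave 26, 18 and 9 UMIs and Ighg1 12, 5 and 4 UMIs in the same order. Ighg2c, which some inbred strains carry and others replace with Ighg2a, gave 1, 0 and 1 UMIs in cells, and a count of 0 allows up to 0.0371 CPM in the MRL/lpr library. Ighg2a was not among the genes described here, so these counts do not give the level of IgG2a.

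Igkc, the kappa light chain, was at 151 CPM in control (12345 UMIs), 15.6 in MRL/lpr (1263 UMIs) and 145 in MRL/lpr + hUC-MSC (10629 UMIs). Jchain was at 22.7, 0.692 and 49.4 CPM (1862, 56 and 3633 UMIs). Both genes were thus lowest in the MRL/lpr library, and Jchain was 71.5 times higher in the treated library than there (54.9 to 94.8). Mzb1 was at 3.85, 0.729 and 3.70 CPM (316, 59 and 272 UMIs). Cd79a differed least among the 8 genes with at least 20 UMIs in every pair of libraries. It was at 1.34, 1.40 and 1.95 CPM (110, 113 and 143 UMIs), with a ratio of 1.04 for MRL/lpr over control (0.793 to 1.37) and 1.39 for treated over MRL/lpr (1.08 to 1.80).

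**Figure D1:**
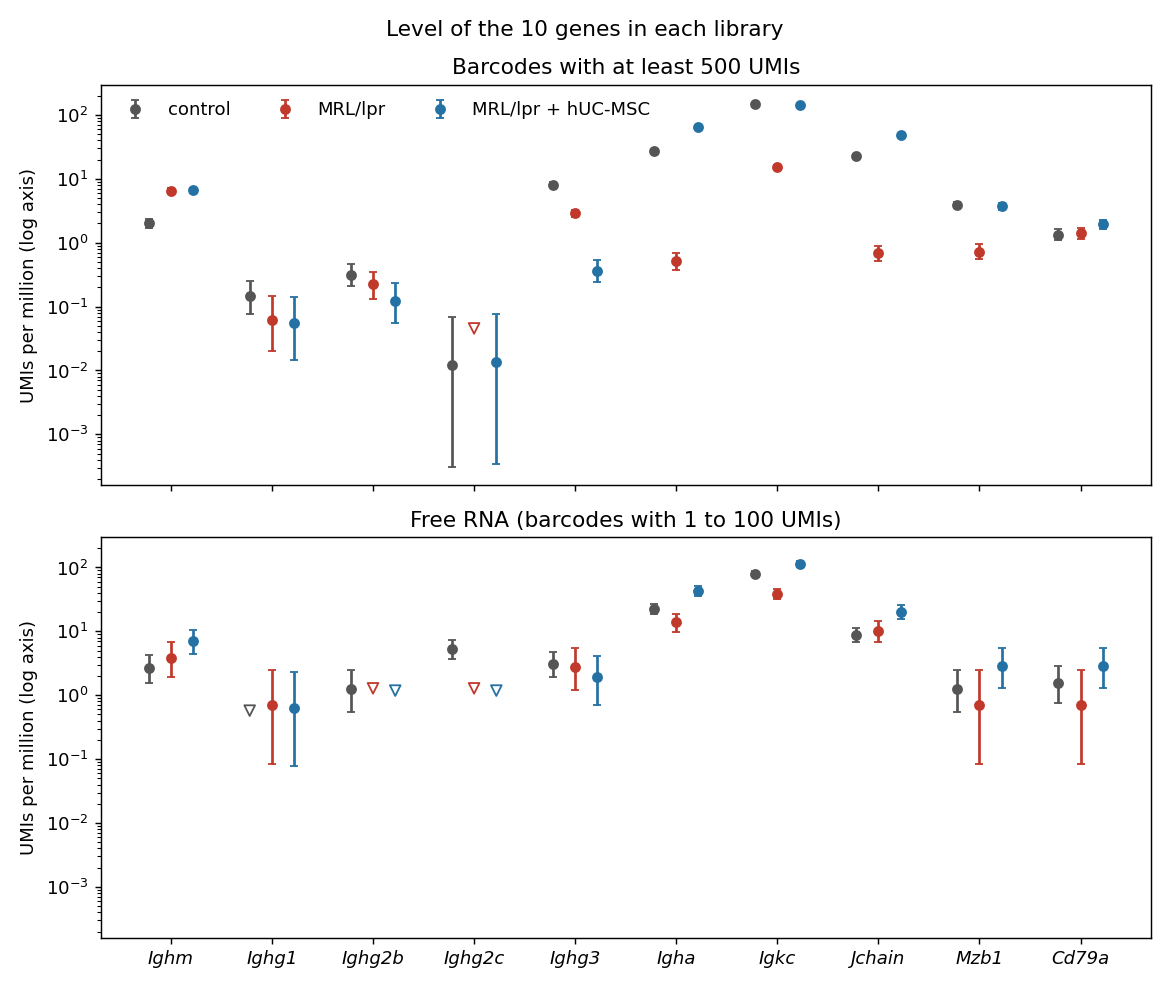
Level of each of the 10 genes (CPM, log axis) in barcodes with at least 500 UMIs and in free RNA, for control, MRL/lpr and MRL/lpr + hUC-MSC, with exact 95% Poisson intervals; open triangles mark the upper limit for a gene at 0. Igha spans the widest range, from 0.519 to 64.2, and Cd79a one of the narrowest, from 1.34 to 1.95.

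In each pair of libraries, 8 of the 10 genes had at least 20 UMIs over both. Between MRL/lpr and control, 1 of the 8 (Ighm) was at least 2-fold higher, beside 18.9% of all 19174 genes compared, and 5 (Ighg3, Igha, Igkc, Jchain and Mzb1) were at least 2-fold lower, beside 6.06%. The median log2 ratio of the 8 was -1.94, against 0.09 over all genes. Between MRL/lpr + hUC-MSC and MRL/lpr, 4 of the 8 (Igha, Igkc, Jchain and Mzb1) were at least 2-fold higher, beside 4.75% of 19522 genes, and 1 (Ighg3) at least 2-fold lower, beside 9.94%. Their median was 1.41, against 0.04. Between MRL/lpr + hUC-MSC and control, 3 (Ighm, Igha and Jchain) were at least 2-fold higher, beside 19.4%, and 2 (Ighg2b and Ighg3) at least 2-fold lower, beside 10.4%. Each library enters 2 of these comparisons, so they are not independent of each other. Several calls turned outside the barcodes richest in constant-gene UMIs, called Ig-rich below. There MRL/lpr over control was 4.55 for Ighg3, 2.37 for Igkc, 2.02 for Jchain and 2.47 for Mzb1. It was 4.97 for Ighm and 0.924 for Igha. Ighg3 was at 0.939 for treated over MRL/lpr. Treated over control was 5.02 for Ighg2b and 4.28 for Ighg3.

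Among cell barcodes, Igha was the leading isotype in control and MRL/lpr + hUC-MSC, and Ighm in MRL/lpr. In control, 71.6% of the 3074 heavy chain UMIs were Igha (interval 70.0 to 73.2), 21.7% Ighg3 and 5.40% Ighm. In MRL/lpr, 63.8% of 832 were Ighm (60.5 to 67.1), 28.4% Ighg3 and 5.05% Igha. In MRL/lpr + hUC-MSC, 90.0% of 5245 were Igha (89.1 to 90.8), 9.27% Ighm and 0.515% Ighg3. A single barcode held 659 of the 667 Ighg3 UMIs of control, and another 209 of the 236 in MRL/lpr. Outside the Ig-rich barcodes Ighm led in all 3 libraries. Its share there was 65.4% of 156 UMIs in control, 84.6% of 592 in MRL/lpr and 52.2% of 906 in MRL/lpr + hUC-MSC. In free RNA, by contrast, Igha led in all 3 libraries, with 64.6% in control (144 of 223 UMIs), 65.6% in MRL/lpr (40 of 61) and 81.8% in MRL/lpr + hUC-MSC (135 of 165). In MRL/lpr, however, 30 of these 40 UMIs lay in barcodes rich in immunoglobulin RNA in the treated library, as described below. None of the 11 Ighm UMIs did, so without those barcodes Igha did not lead there. These are shares of UMIs among the heavy chain genes described here, which do not include Ighg2a. No correction was made for how well each gene is captured.

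Immunoglobulin RNA was concentrated in a few barcodes, most of all in control. The leading barcode held 41.5% of the constant-gene UMIs in control, 35.6% in MRL/lpr and 20.4% in MRL/lpr + hUC-MSC, and the leading 10 held 97.4%, 47.9% and 84.0%. The MRL/lpr library spread the rest most widely: its leading 100 barcodes held 68.1%, against 98.9% and 91.7%.

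**Figure D2:**
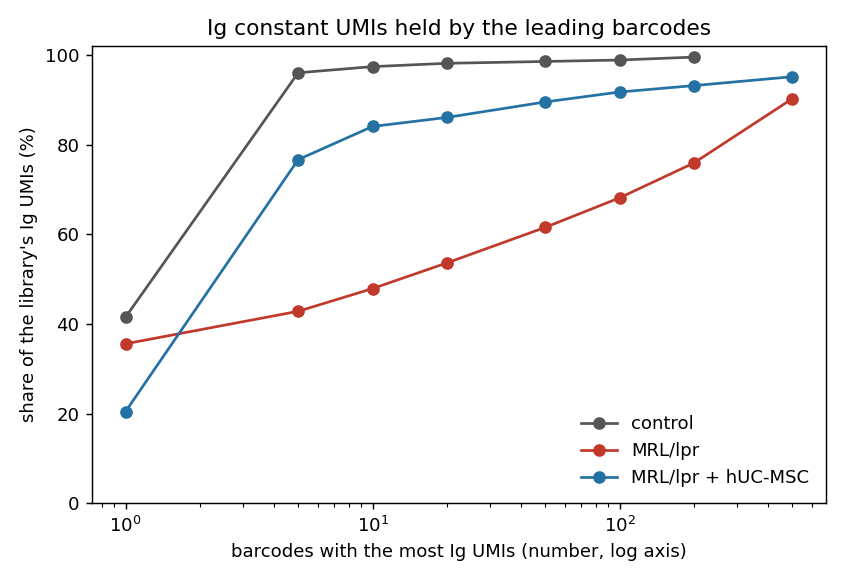
Share of each library's immunoglobulin constant UMIs (%, vertical axis) held by its leading barcodes (number, log axis), for control, MRL/lpr and MRL/lpr + hUC-MSC. The leading 10 barcodes held 97.4% in control, 84.0% in MRL/lpr + hUC-MSC and 47.9% in MRL/lpr.

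Barcodes with at least 20 constant-gene UMIs and at least 10 times the number that free RNA would give at their depth are called Ig-rich. There were 11 in control, 9 in MRL/lpr and 31 in MRL/lpr + hUC-MSC, and they held 15042 (97.6%), 986 (47.1%) and 13898 (87.6%) of the constant-gene UMIs. No 2 Ig-rich barcodes of a library differed at fewer than 6 of their 16 bases. They fell into 3 kinds. The first had at least 200 constant-gene UMIs (5, 1 and 7 barcodes), the second at least 5 of 16 B cell genes and fewer UMIs (6, 8 and 6), and the third fewer UMIs and fewer B cell genes (0, 0 and 18).

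The 13 barcodes with at least 200 UMIs each expressed 1 dominant heavy chain, which made up at least 94.6% of the heavy chain UMIs in the 5 control barcodes and at least 99.7% in the others. In control, barcode 1 by rank had 1041 Igha, 5354 Igkc, 883 Jchain and 70 Mzb1 UMIs among 14436 UMIs in all. Barcode 2 was the IgG3 carrier of that library, with 659 Ighg3, 12 Ighg1, 2265 Igkc, 272 Jchain and 114 Mzb1 UMIs. Barcodes 3, 4 and 5 had 305, 445 and 365 Igha UMIs and 2529, 1062 and 735 Igkc UMIs. Of these, barcode 4 stood apart in having 25 Jchain and 2 Mzb1 UMIs beside 7 of 7 podocyte genes. Barcodes 3 and 4 each had 7 of 8 endothelial genes. Barcode 5 had 21 Ighg2b UMIs and 174 UMIs of lambda light chain genes.

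The MRL/lpr library had a single barcode of this kind. It held 209 Ighg3, 536 Igkc, 24 Jchain, 3 Mzb1 and 3 Cd79a UMIs, and immunoglobulin genes made up 59.8% of its 1290 UMIs. No Ighm or Igha UMI was seen in it. The same barcode letters carried 1352 UMIs in the control library, with 0 constant-gene UMIs there, and no other Ig-rich barcode had 500 UMIs in another library. It held 88.6% of the Ighg3 UMIs of the MRL/lpr cells, and without barcodes shared between libraries the MRL/lpr level of the 7 genes was 16.7 CPM instead of 25.9.

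All 7 barcodes of this kind in MRL/lpr + hUC-MSC were led by Igha, with 303, 1051, 1079, 642, 543, 439 and 47 UMIs in rank order. Their Igkc counts were 2942, 1992, 1667, 1536, 408, 350 and 204, and their Jchain counts 189, 300, 1004, 1228, 329, 287 and 1. Jchain per heavy chain UMI thus ran from 0.0213 to 1.91 among them. In control it ran from 0.0562 to 1.11 over the 4 Igha barcodes and was 0.405 in the Ighg3 barcode, and in the Ighg3 barcode of MRL/lpr it was 0.115. Jchain RNA was therefore seen beside an IgG chain, whose tail lacks the cysteine codon shown above, as well as beside Igha. Mzb1 was seen in 6 of the 7 treated barcodes and in all 5 control barcodes.

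**Figure D3:**
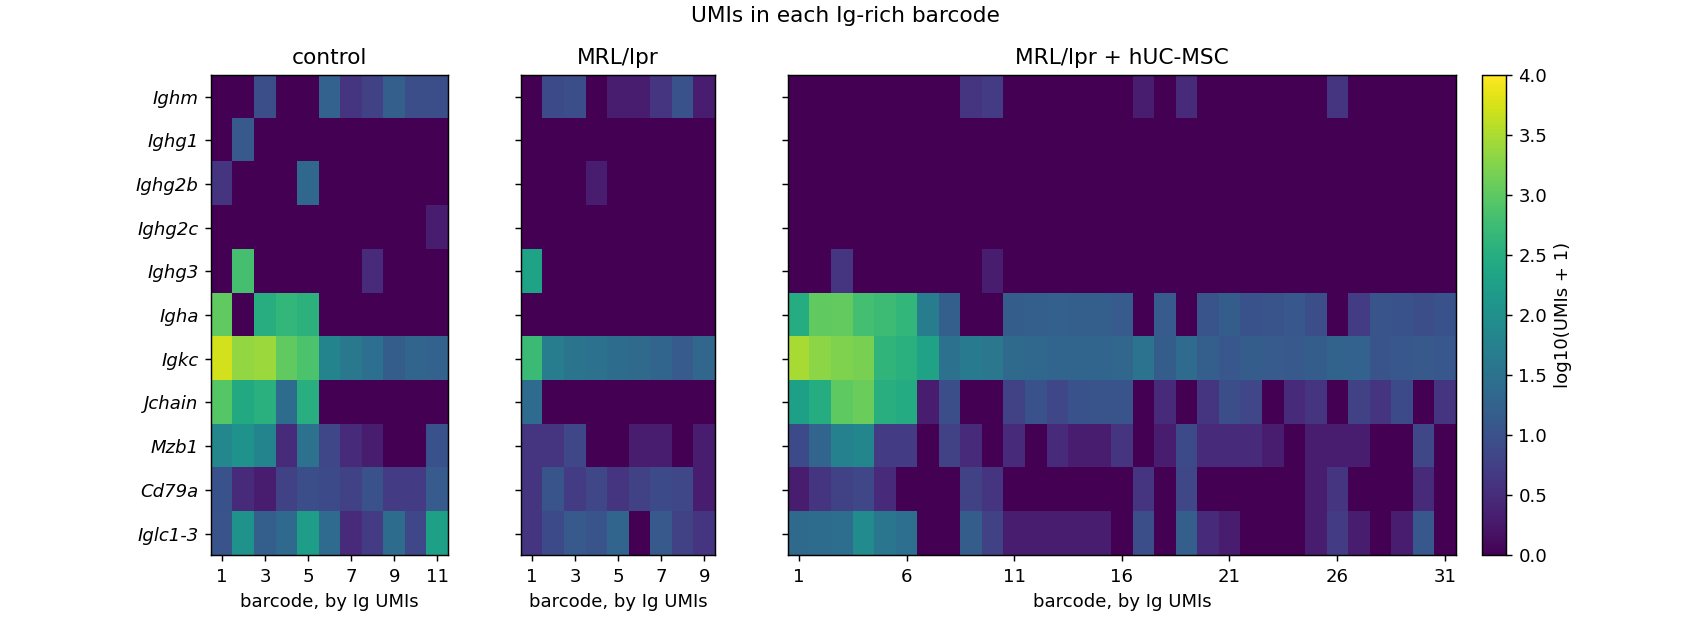
UMIs of the 10 genes and the summed lambda constant genes Iglc1 to Iglc3 (colour, log10 of UMIs + 1) in the 51 Ig-rich barcodes of control, MRL/lpr and MRL/lpr + hUC-MSC, 1 column per barcode. Barcodes with at least 200 constant-gene UMIs carry 1 dominant heavy chain with Igkc and Jchain (Ighg3 in the MRL/lpr barcode, Igha in the 7 treated ones), and 18 treated barcodes carry low counts of Igha with Igkc.

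The 13 barcodes also carried the genes of antibody secretion. Their non-immunoglobulin UMIs were compared with those of all barcodes that are not Ig-rich, the 3 libraries pooled. Genes entered with at least 20 UMIs in the 13 barcodes, so the counts are a description, and 29.1% of all 450 such genes were at least 2-fold higher. Of the 14 plasma cell genes all were seen and 9 had 20 UMIs, and all 9 were at least 2-fold higher. Xbp1, the transcription factor of the secretory programme, was 11.7 times higher (interval 9.56 to 14.1) and Txndc5, a reticulum oxidoreductase, 26.5 times higher. Of the 24 genes of reticulum and secretion in the files, 20 of 21 with enough UMIs were at least 2-fold higher, among them Sec11c of the signal peptidase (21.7 times), Ssr4 of the translocon (10.6 times), the chaperone Hsp90b1 (5.95 times) and Sec61g (3.37 times). Tnfrsf17, the BCMA receptor of plasma cells, gave 31 UMIs in 5 of the 13 barcodes, and Tnfrsf13b 14 UMIs in 6.

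Markers of mature B cells were mostly not seen there. Of the 16 B cell genes, 11 were at 0, among them Ms4a1 (CD20), while Cd79a gave 45 UMIs and Cd79b 36. Ighd was at 0, and of 6 genes of the cell cycle only Stmn1 was seen, with 1 UMI. The 4 antibody transport and binding genes (Pigr, Fcmr, Fcamr and Fcgrt) were at 0 as well. Lambda constant genes were seen beside kappa, with 292 UMIs of Iglc2, 212 of Iglc3 and 49 of Iglc1.

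Endothelial and podocyte markers were lower than in the remaining barcodes but were not absent. All 8 endothelial and all 7 podocyte genes had a UMI in the 13 barcodes, with summed levels of 1329 CPM (against 3713) and 1698 CPM (against 2914) of the non-immunoglobulin UMIs. The 8 T cell genes were at 0. The 10 marker genes of plasmacytoid dendritic cells were higher as a sum (2185 CPM against 1337), with 3 of them at 0. This sum rests largely on Ly6d (871 CPM against 2.32), which was also high in the kind with B cell genes (1828 CPM). Tcf4 was higher as well (561 against 234), as were Pacsin1 and Runx2 on 1 and 4 UMIs. Bst2 (0.894 times), Irf8 (0.613 times) and Klk1 (0.0489 times) were lower. The part of doublets and of free RNA in these UMIs was not tested.

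The second kind, with B cell genes, carried Igkc, in most barcodes with fewer heavy chain UMIs. The 6 control barcodes had 17, 3, 5, 15, 8 and 8 Ighm UMIs and 62, 39, 28, 14, 19 and 17 Igkc UMIs. The 8 MRL/lpr barcodes had 7, 8, 0, 1, 1, 3, 9 and 1 Ighm UMIs and 47, 33, 30, 25, 23, 19, 13 and 20 Igkc UMIs. In MRL/lpr + hUC-MSC there were 13 Ighm and 166 Igkc UMIs over 6 barcodes, 1 of which had 8 Igha UMIs. Ighm was the leading heavy chain in all 6 control barcodes and in 7 of the 8 MRL/lpr barcodes (Ighg2b, with 1 UMI, in the other), and Jchain was at 0 in all 20 barcodes. Cd79a was seen in all 20 (1 to 13 UMIs) and Mzb1 in 13. Control barcode 11 by rank was a lambda carrier, with 187 UMIs of lambda light chain genes beside 17 of Igkc.

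The B cell genes chose these 20 barcodes, so their level there is only a description. Ms4a1 gave 67 UMIs, Cd79b 58, and Ebf1, also an endothelial and mesenchymal gene, 70. Genes not used in the choice differed from the first kind. Xbp1 was at 0.356 times its level in the barcodes that are not Ig-rich (interval 0.0971 to 0.913), and 2 of 9 reticulum and secretion genes were at least 2-fold higher, beside 31.4% of all 554 genes. The lambda constant gene Iglc2 gave 222 UMIs. Fcmr, the receptor for IgM, was among the B cell genes used in the choice and gave 14 UMIs in 7 of the 20.

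The third kind was found only in MRL/lpr + hUC-MSC under the thresholds used. Its 18 barcodes had 4 to 16 Igha UMIs (median 12), 10 to 31 Igkc UMIs (median 14.5), 0 to 10 Jchain UMIs and 0 to 5 Mzb1 UMIs, at depths of 1386 to 2366 UMIs. Every one had both Igha and Igkc and no Ighm. Igha stood at 6662 CPM in them, against 18.8 CPM in the other 4558 barcodes of that depth in the library, and Igkc at 9327 against 44.8. Since these UMIs chose the barcodes, that is a description. The genes not used in the choice were Jchain (99 UMIs in 17 of the 18) and Mzb1 (24 UMIs in 13). By contrast Ssr4 was 2.43 times its level elsewhere, Xbp1 1.89 times (interval 0.815 to 3.72), and 1 of 3 reticulum and secretion genes with enough UMIs was at least 2-fold higher, beside 5.22% of 230 genes. They carried a median of 4 of 8 endothelial genes, against 3 in the other barcodes of that depth. The medians of mesangial and of macrophage genes were each 2 of 7 against 1. Those of podocyte, T cell, neutrophil and erythroid genes were equal.

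Igha counts were also binned over all cell barcodes, in bins that overlap the third kind but are not the same set. In MRL/lpr + hUC-MSC, 237 barcodes had 1 Igha UMI, 27 had 2 to 4, 31 had 5 to 16, and 7 had 17 or more. In control these numbers were 44, 1, 0 and 4, and in MRL/lpr 40, 1, 0 and 0. Among the 31 treated barcodes with 5 to 16 Igha UMIs, all had Igkc, 29 had Jchain and 18 had Mzb1. Their Igkc per Igha was 1.29 and their Jchain per Igha 0.443, against 2.22 and 0.813 in the 7 barcodes with 17 or more, and against 2.65 and 0.467 in the free RNA of that library. In the 18 barcodes of the third kind these ratios were 1.40 and 0.471.

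Variable region genes, which differ between B cell clones, were few in number. Of 348 in the files, 15 were seen in the Ig-rich barcodes of control, 9 in MRL/lpr and 23 in MRL/lpr + hUC-MSC, with 85, 32 and 584 UMIs. In control, Iglv1 led with 32 UMIs in 6 barcodes, followed by Igkv4-72 (12 in 2) and Igkv19-93 (7 in 1). In MRL/lpr, Igkv5-45 had 14 UMIs, all in the Ighg3 barcode, followed by Igkv9-120 (5 in 2) and Igkv5-43 (4 in 1). In MRL/lpr + hUC-MSC, Iglv1 had 413 UMIs in 6 barcodes, 289 of them in barcode 4 by rank, while Igkv1-110 (72 UMIs) and Ighv2-2 (24 UMIs) were each seen in 1 barcode. Variable genes resemble each other closely, so the assignment of single UMIs among them is uncertain.

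Over all 51 Ig-rich barcodes, genes outside the immunoglobulin loci were ranked by the ratio of their level to that in the remaining barcodes. The ranking covered 478 genes with at least 50 UMIs in the Ig-rich barcodes, so it is only a description. Jchain was 28422 times higher and Mzb1 4909.9 times. They were followed by Gm30211 (2497 times), Ms4a1 (1787), Cd79a (928), Ly6d (502), Cd79b (244), Eaf2 (35.1), Trp53inp1 (26.6) and E330020D12Rik (21.1). Jchain, Mzb1 and Cd79a, members chosen here for their known role, are among the first 5 of this list.

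Most barcodes with an immunoglobulin UMI nevertheless carried none of Jchain, Mzb1 and Cd79a. At least 1 constant-gene UMI was seen in 276 control barcodes (2.23%), 705 of MRL/lpr (3.63%) and 1273 of MRL/lpr + hUC-MSC (5.70%). Of these, 20 (7.25%, interval 4.48 to 11.0), 33 (4.68%, 3.24 to 6.51) and 105 (8.25%, 6.80 to 9.90) also had at least 1 of the 3 genes. They included every Ig-rich barcode and held 98.1%, 52.7% and 91.3% of the constant-gene UMIs.

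The barcodes without any of the 3 genes, 256, 672 and 1168 in number, mostly had a single constant-gene UMI (89.1%, 79.5% and 89.6%). Their highest counts were 3 in control, 15 in MRL/lpr and 18 in MRL/lpr + hUC-MSC. Among barcodes with at least 3 constant-gene UMIs, 69.2% of 26, 25.6% of 82 and 70.1% of 127 had at least 1 of the 3 genes. The MRL/lpr interval (16.6 to 36.4) lay below the other two (48.2 to 85.7 and 61.3 to 77.9).

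The combinations differed in what they carried. All 3 genes together were seen in 6 control, 1 MRL/lpr and 6 treated barcodes, which held 96.0%, 35.6% and 76.8% of the constant-gene UMIs. Jchain with Mzb1 and without Cd79a was seen in 24 treated barcodes and in none of the other libraries, and all 24 had Igha and Igkc. Mzb1 with Cd79a and without Jchain was seen in 6, 8 and 17 barcodes, of which 4, 8 and 8 had Ighm and 0, 0 and 1 Igha. Jchain as the single 1 of the 3 was seen in 0, 3 and 34 barcodes.

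Read the other way, barcodes with Jchain, Mzb1 or Cd79a had constant-gene UMIs at higher shares than all barcodes of the library (2.23%, 3.63% and 5.70%). In control 6 of 20 Jchain barcodes had such a UMI (30%), in MRL/lpr 4 of 33 (12.1%) and in MRL/lpr + hUC-MSC 66 of 155 (42.6%). The MRL/lpr interval for Jchain (3.40 to 28.2) held the library share. For Mzb1 the numbers were 14 of 21, 20 of 37 and 59 of 83, and for Cd79a 18 of 34, 19 of 59 and 35 of 78.

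At least 5 of the 16 B cell genes, Ig-rich or not, were seen in 13 barcodes of control (0.105% of all), 14 of MRL/lpr (0.0720%) and 21 of MRL/lpr + hUC-MSC (0.0941%). The 3 intervals, 0.0559 to 0.179, 0.0394 to 0.121 and 0.0582 to 0.144, overlap. Constant-gene UMIs were seen in 13, 12 and 21 of them, with a median of 15, 17 and 12 Igkc UMIs, and Ighm in 10, 10 and 12. A switched heavy chain (any Ighg gene or Igha) was seen in 4, 1 and 6.

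Free RNA carried the members as well. The 7 constant genes stood at 114 CPM in free RNA of control, 59.7 in MRL/lpr and 167 in MRL/lpr + hUC-MSC. Cell barcodes were thus at 1.65 times free RNA in control (interval 1.53 to 1.78), 0.433 times in MRL/lpr (0.371 to 0.509) and 1.29 times in MRL/lpr + hUC-MSC (1.18 to 1.41). Without the Ig-rich barcodes these values were 0.0403, 0.230 and 0.161. Outside the Ig-rich barcodes the 7 genes together were thus below free RNA in all 3 libraries. Ighm alone was there at 0.471 times free RNA in control (0.280 to 0.840). It was at 1.62 times in MRL/lpr (0.898 to 3.27) and 0.915 times in MRL/lpr + hUC-MSC (0.597 to 1.47). Whether barcodes with 1 UMI hold background or expression was not tested.

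Much of the free RNA of MRL/lpr lay in barcodes that were Ig-rich elsewhere. Of its 40 Igha UMIs, 30 (75.0%) lay in barcodes that were Ig-rich in MRL/lpr + hUC-MSC, as did 66 of 111 Igkc UMIs (59.5%) and 19 of 29 Jchain UMIs (65.5%). Where such UMIs come from was not tested. Without these barcodes the free RNA of MRL/lpr stood at 26.4 CPM for the 7 genes and 3.47 CPM for Igha. MRL/lpr cell barcodes, at 25.9 CPM for the 7 genes, were close to that value, although the ratio given above was 0.433. All ratios to MRL/lpr free RNA given here keep these barcodes in. Ighg2c was at 34 UMIs in control free RNA, spread over 16 barcodes, against 1 UMI in control cells and 0 in the free RNA of the other libraries. Ighg2b gave 8 UMIs there.

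Outside the Ig-rich barcodes, the order of the libraries changed. The 7 genes stood at 4.60 CPM in control, 13.7 in MRL/lpr and 26.9 in MRL/lpr + hUC-MSC, so that MRL/lpr was 2.98 times the control (interval 2.65 to 3.36) instead of 0.138 times. Ighm was 4.97 times the control there (4.01 to 6.21) and Igkc 2.37 times (2.02 to 2.78), while Igha was 0.924 times (0.593 to 1.44). Between MRL/lpr + hUC-MSC and MRL/lpr, Igha remained 10.4 times higher (7.55 to 14.7), Jchain 6.75 times (4.63 to 10.1) and Igkc 2.28 times (2.05 to 2.54), and Ighm was 1.04 times (0.916 to 1.18). Between MRL/lpr + hUC-MSC and control, Igkc was 5.40 times higher (4.67 to 6.27) and Mzb1 4.59 times (2.71 to 8.16). Ighg3 was 4.28 times higher (1.69 to 12.8) and Ighg2b 5.02 times (1.04 to 47.8), on few UMIs.

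The Ig-rich barcodes held 38.6% of the Ighm UMIs in control, 5.65% in MRL/lpr and 2.67% in MRL/lpr + hUC-MSC. These shares were below those of Igkc, Jchain, Mzb1 and Cd79a in each library. In MRL/lpr the Ig-rich barcodes also held none of the 42 Igha UMIs. Ighm was seen in 80 (0.646%), 372 (1.91%) and 391 (1.75%) barcodes, mostly with 1 UMI. The remaining barcodes were put in classes by marker genes, but many met the rule for no class. These unassigned barcodes were 1501 of 12375 in control, 6688 of 19424 in MRL/lpr and 8423 of 22292 in MRL/lpr + hUC-MSC. In the same order they held 31 of 221, 121 of 517 and 546 of 1070 Igkc UMIs outside the Ig-rich barcodes. For Igha these were 4 of 46, 17 of 42 and 213 of 396. They held 37, 151 and 209 Ighm UMIs. Values of single classes leave these UMIs out. In the macrophage-like class Ighm stood at 55.9 CPM in control (62 barcodes), 20.6 in MRL/lpr (1934 barcodes) and 12.3 in MRL/lpr + hUC-MSC (3080 barcodes), which is 21.1, 5.41 and 1.74 times free RNA. The intervals of these ratios were 10.4 to 43.3, 2.96 to 11.0 and 1.11 to 2.87. Within this class Ighm was thus highest in control, on 19 UMIs, unlike in the sum over all cell barcodes.

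Macrophage-like barcodes with Ighm were mostly without the kappa light chain gene Igkc, and so were most barcodes with Ighm outside the Ig-rich ones. Lambda constant genes were not counted in these barcodes. Of 17, 159 and 124 macrophage-like barcodes with Ighm, 17, 158 and 124 had no Igkc UMI, and V genes were seen in none. Over all classes and the unassigned barcodes, 70 of 73, 345 of 365 and 366 of 386 barcodes with Ighm had no Igkc UMI. V genes were seen in 1, 1 and 2 of them. Ighm per Igkc was 10.8 in the MRL/lpr class and 2.29 in the treated class, against 0.0991 and 0.0615 in free RNA. Of the 111 Igkc UMIs in MRL/lpr free RNA, 66 lay in barcodes that were Ig-rich in the treated library. Without them its free RNA value would be above 0.0991. The share of macrophage-like barcodes with Ighm was 27.4%, 8.22% and 4.03% (median depths 4809.5, 4563 and 3216 UMIs), and 4.84%, 1.14% and 0.617% after thinning each barcode to 500 UMIs. In podocyte-like barcodes, which should lack the gene, it was 0.149%, 0.239% and 0.727% at median depths of 6680, 6427 and 4352. Thinned, the podocyte-like shares were 0.0373%, 0% and 0.364%. In the treated library the thinned intervals of the podocyte-like (0.00921 to 2.01) and macrophage-like classes (0.372 to 0.962) overlap.

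Igkc was seen in a larger share of T cell-like barcodes than of all barcodes outside the Ig-rich ones in every library. The shares were 9.72% against 1.17% in control, 11.5% against 1.47% in MRL/lpr and 12.1% against 2.76% in MRL/lpr + hUC-MSC. In the T cell-like class of MRL/lpr it was at 146 CPM (191 UMIs, interval 126 to 169), or 3.80 times free RNA (2.99 to 4.85). In that class 68 of 589 barcodes had the gene, with at most 14 UMIs. In the treated library it was at 110.0 CPM (119 UMIs in 63 of 519 barcodes), 0.960 times free RNA, and in control at 46.1 CPM (13 UMIs in 7 of 72 barcodes), 0.581 times. Igkc per Igha in this class was 63.7 in MRL/lpr and 23.8 in MRL/lpr + hUC-MSC, against 2.78 and 2.65 in free RNA. In MRL/lpr free RNA, 66 of 111 Igkc and 30 of 40 Igha UMIs lay in barcodes that were Ig-rich in the treated library. Without them MRL/lpr free RNA held Igkc at 15.6 CPM instead of 38.5. No V gene was seen in the T cell-like barcodes with Igkc, and Cd79a in 1 of them, in MRL/lpr. Both were rare over all classes and the unassigned barcodes as well. V genes were seen in 2 of 145, 3 of 285 and 8 of 615 Igkc barcodes outside the Ig-rich ones, and Cd79a in 5, 6 and 19. Ighm in the T cell-like class stood at 60.3, 25.3 and 11.1 CPM (17, 33 and 12 UMIs), against 2.64, 3.82 and 7.04 CPM in free RNA. It was highest in control in this class too, and the treated value was close to its free RNA. Doublets of T and B cells, or cells of another kind in the class, were not tested.

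The class with markers of plasmacytoid dendritic cells, which are known to express Mzb1, was small (13, 46 and 52 barcodes). Mzb1 stood there at 11.5 CPM in control (3 UMIs), 66.6 in MRL/lpr (19 UMIs) and 42.8 in MRL/lpr + hUC-MSC (14 UMIs). Ighm stood at 26.9, 140.2 and 82.6 CPM, which is 10.2, 36.7 and 11.7 times free RNA. Igkc was seen in 5 of the 46 MRL/lpr barcodes (24 UMIs) and in 4 of the 52 treated ones (14 UMIs). Jchain, Igha and Cd79a were at 0 in this class in all 3 libraries. Igha was below free RNA in every class of every library, with a highest ratio of 0.263, and in the large endothelial-like class Igkc was at 1.46, 3.59 and 7.79 CPM, well under free RNA.

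**Figure D4:**
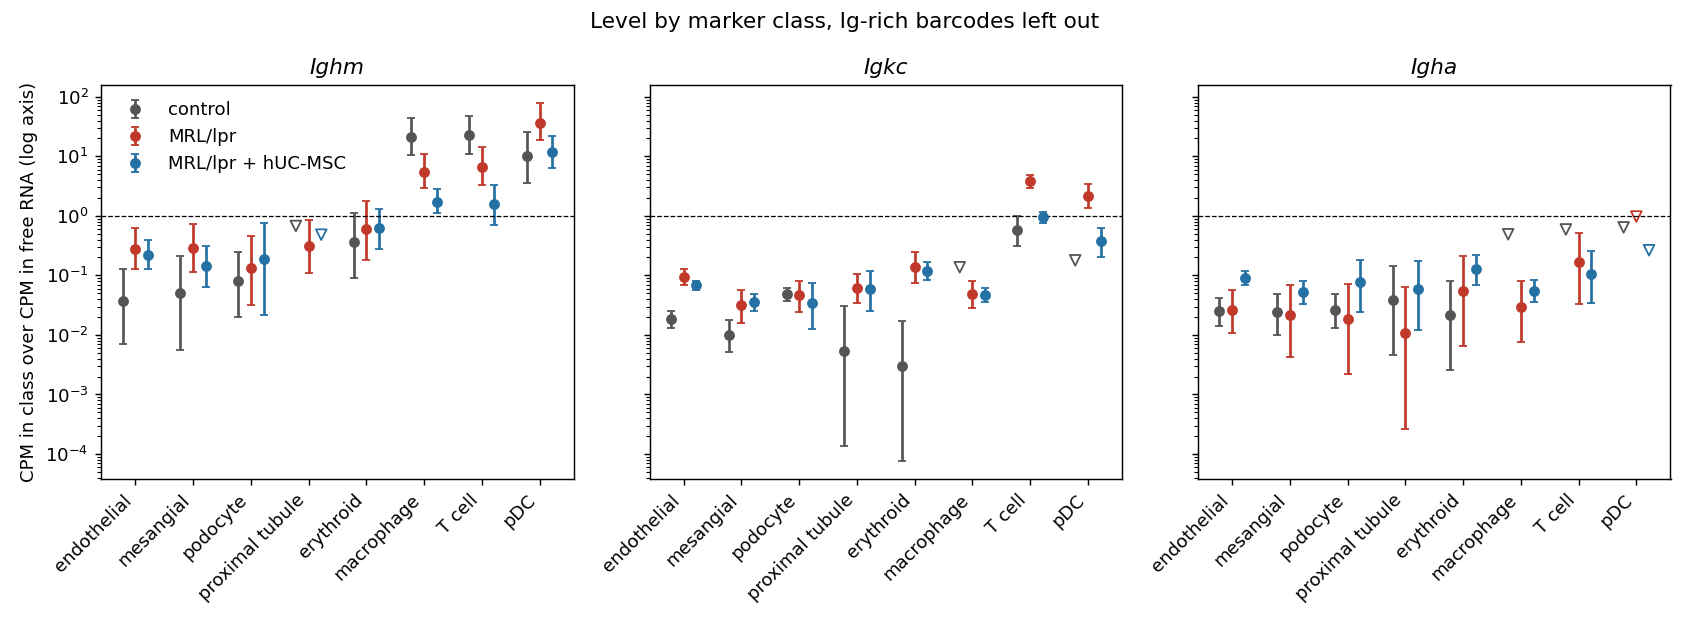
Ratio of Ighm, Igkc and Igha in marker-based classes of barcodes (Ig-rich ones left out) to free RNA of the same library (log axis), for control, MRL/lpr and MRL/lpr + hUC-MSC, with exact 95% intervals; open triangles mark upper limits for a gene at 0. Ighm lies above free RNA in macrophage-like barcodes (21.1, 5.41 and 1.74 times), and also in the T cell-like and plasmacytoid dendritic cell classes. In the treated T cell-like class it lies only a little above, on 12 UMIs. Igkc lies above it in the T cell-like class of MRL/lpr (3.80 times) and in the plasmacytoid dendritic cell class there. Free RNA of MRL/lpr includes barcodes that are Ig-rich in another library.

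The filters of the study's methods bear on these barcodes. Limits of 200 to 3000 genes and 10% mitochondrial UMIs kept 10 of 11, 8 of 9 and 30 of 31 Ig-rich barcodes. With the further stated limit of 5% ribosomal gene UMIs, computed here from genes named Rps or Rpl, 0, 1 and 0 were kept, as were 611 of 12386, 1101 of 19433 and 705 of 22323 cell barcodes. The median ribosomal share was 8.25%, 10.8% and 12.7%.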

How the data were processed

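Per the file headers the tables are whole-number UMI counts per gene and barcode, not normalized, deposited by the authors as unfiltered matrices. The submitters' processing notes name Cell Ranger, STAR and mm10, and the file headers name Cell Ranger software version 4. The authors isolated glomeruli with collagenase V and captured about 8000 cells per library. Depth was 94903163 (control), 103319588 (MRL/lpr) and 90812138 UMIs (MRL/lpr + hUC-MSC).

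Cell barcodes had at least 500 UMIs, and free RNA was summed over barcodes with 1 to 100. Levels are UMIs per 1000000 of the same barcodes with exact Poisson intervals, ratios have exact conditional binomial intervals, and shares exact Clopper-Pearson intervals (95%). A count of 0 was set to an upper limit of 3 counts. Thinning drew 500 UMIs per barcode. A class needed at least 3 markers seen and 2 times the marker UMIs of the next class, with Ig-rich barcodes left out. No doublet caller was run here, although the study names one. The computing used Python 3.11.15, numpy 2.4.6, scipy 1.17.1, pandas 2.3.3 and matplotlib 3.10.9. The ratio intervals and the Ig-rich rule were tested on simulated data, and the classes by marker genes were not. The simulated counts were independent draws, without the concentration in few barcodes seen here. They therefore cannot show how well the intervals hold for these genes. The barcodes planted for the Ig-rich rule were given more UMIs than its limit of 20. Coordinates are from GENCODE M21 (GRCm38), in which 32158 of 32285 gene identifiers and all 10 members were found.

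The members and gene lists were chosen with earlier results of these data known. Named genes are the 10 members, up to 4 of each list by UMIs and up to 3 variable genes per library. Added to them are the 10 genes outside the immunoglobulin loci with the highest ratio in Ig-rich barcodes, among which are Jchain, Mzb1 and Cd79a. Other genes are named where a count is small or a gene is used as a marker (Ms4a1, Ighd, Tnfrsf13b, Stmn1, Ebf1). The limits of 5 B cell genes and of 200 UMIs between kinds were set after values were seen. Alternatives varied the depth limits, the Ig-rich limits, the free RNA range, and the leading and shared barcodes.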

Additional observations from a re-analysis of the deposited data

Results flagged for a closer look

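Barcodes with 101 to 499 UMIs entered none of the comparisons, and some members stood higher there than in the same barcodes of the control library. In MRL/lpr, Ighm was at 4.42 CPM (86 UMIs) against 0.464 in control (3 UMIs), and Ighg1 at 1.64 CPM (32 UMIs) against 0. One MRL/lpr barcode of 420 UMIs held 125 Igha, 18 Igkc and 1 Jchain UMIs, whereas the highest Igha count in such a control barcode was 11. In MRL/lpr + hUC-MSC, Ighm was at 9.86 CPM, Ighg1 at 0.775, Ighg3 at 2.89 (control 0.773), Igha at 34.0 (control 14.5), Igkc at 75.7 (control 46.2), Jchain at 13.1 (control 5.87) and Mzb1 at 2.75 (control 0.927). These are values of single libraries, with no test.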

How the results depend on the processing

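No paired analysis was possible because each condition had 1 library and no test was made. The levels rest on few barcodes, and the gamma chains other than Ighg3 had counts below 30 in cells. Alternatives on leading barcodes, shared barcodes, the low-Ig kind and barcodes rich in another library were chosen after seeing the data.

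Without the leading barcode of each library, the CPM of the 7 constant genes was 110.0 in control, 16.7 in MRL/lpr and 172 in MRL/lpr + hUC-MSC, the Igha share in control 57.2%, the Ighm share in MRL/lpr 85.2%, the ratios 0.152 (MRL/lpr over control), 10.3 (treated over MRL/lpr) and 1.56 (treated over control), and Ighg3 turned to 1.10 (treated over MRL/lpr). Without the leading 10, the CPM was 4.92, 13.5 and 34.5, the shares 27.9%, 84.6% and 53.7% (Igha in treated), the share of control barcodes with Jchain, Mzb1 or Cd79a 3.76%, control kept 1 Ig-rich barcode, and the ratios were 2.74, 2.56 and 7.01. There MRL/lpr over control turned for the 7 genes, Ighg3 (4.55), Igkc (2.13), Jchain (2.02) and Mzb1 (1.54), and treated over control for Ighg2b (5.02) and Ighg3 (4.28). Without barcodes shared with another library, MRL/lpr was at 16.7 CPM with an Ighm share of 85.4%, the ratios were 0.0878 and 13.1, and Ighg3 turned to 1.14 (treated over MRL/lpr). Leaving those barcodes out is what makes these values differ.

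With at least 2000 UMIs per barcode, MRL/lpr was at 15.2 CPM with an Ighm share of 89.0%, the treated library at 232 CPM with an Igha share of 91.3%, 13 Ig-rich barcodes and 5.65% of its barcodes with a constant-gene UMI carrying Jchain, Mzb1 or Cd79a, and the ratios were 0.0796, 15.3 and 1.22. With at least 1000 the treated library was at 222 CPM. With 200 to 3000 genes and at most 10% mitochondrial UMIs, the CPM was 344 in control, 39.1 in MRL/lpr and 319 in treated, the shares 67.1%, 59.5% and 90.9%, and the ratios 0.114 (MRL/lpr over control) and 0.929 (treated over control). Without the 18 low-Ig barcodes the treated library was at 209 CPM with 13 Ig-rich barcodes and a ratio of 1.11 to control. With at least 3 constant-gene UMIs, 69.2%, 25.6% and 70.1% of barcodes carried Jchain, Mzb1 or Cd79a. A limit of 10 UMIs gave 17 Ig-rich barcodes in MRL/lpr and 56 in treated, and a limit of 50 gave 6, 2 and 7. With at least 4 B cell genes, MRL/lpr had 32 such barcodes. Free RNA of the 7 genes was at 91.8, 33.6 and 203 CPM from barcodes with 1 to 10 UMIs, 152 in control from 1 to 50, and 26.4 in MRL/lpr without barcodes rich elsewhere. Thinned to 500 UMIs, 0.355%, 0.942% and 1.83% of barcodes had a constant-gene UMI. The cause of these differences was not tested. Of the recomputed values of the main results (levels, shares, numbers of barcodes and ratios), 73 stayed the same, 60 moved and 1 turned. For the other values, mostly of single genes, these were 447, 182 and 8. Staying the same meant lying within the interval, or for numbers of barcodes within a fixed fold limit. A ratio counted as turned only if its first value was at least 2-fold. Treated over control, which fell below 1 at 0.929, was therefore counted as moved.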
